A study of Mus musculus with 8 samples.

Results

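The genes described here encode 10 proteins of the BCL2 family, which set whether a T cell lives or dies: the anti-apoptotic Bcl2, Bcl2l1 and Mcl1, the effectors Bax and Bak1, and the BH3-only Bcl2l11, Bid, Bad, Bbc3 and Pmaip1. Members were every probe set that the platform annotation assigned to 1 of these genes alone. That gave 29 probe sets of 9 genes, out of 34958 probe sets of 18194 genes in the series, and Bax was not analysed here. Gene expression had been measured on 8 arrays of RNA from sorted CD8 memory T cells of 4 aged female mice, 4 age-associated clonal expansions and 4 polyclonal samples, each expansion with its polyclonal partner from the same animal. Expansion 1 belonged to the integrin alpha4-high subclass and expansions 2, 3 and 4 to the alpha4-low subclass. Numbers follow the sample titles; the descriptions of expansions 3 and 4 number them 4 and 5, and each sample's own description gave its subclass. All cells came from spleen and lymph nodes and were sorted as CD8+ CD122+ MHC II-. The expansions also carried TCR Vb3, Vb8.1/8.2, Vb8.3 and Vb14 in mice 1 to 4, and the polyclonal partners lacked the same chain. The sort gate was thus a V beta chain and not a clonotype, and all mice were old. The strain was C57BL/10SnJ for mice 1, 2 and 3 and B10.BR for mouse 4. Ages were 20 months in mice 1 and 2 and 23 months in mice 3 and 4. In the order of the mice, the expansions had a sort purity of 91, 95, 96 and 98%, and the polyclonal samples one of 97, 75, 66 and 97%.

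The BCL2 family controls the permeability of the outer mitochondrial membrane. BAX and BAK form the pores that release cytochrome c, the anti-apoptotic members hold them in check, and BH3-only proteins bind the anti-apoptotic members or the effectors and so promote cell death. In memory CD8 T cells, interleukin-7 and interleukin-15 sustain BCL2, and loss of BIM (the product of Bcl2l11) lets T cells survive that would otherwise die.

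Values are MAS5 signals on a linear scale. A level of background was taken on each array from bacterial control probe sets that gave no sign of a spike, and lay between 33.7 and 61.9. Arrays had median signals between 46.5 and 75.1, and 22050 to 30498 probe sets were above background. Each of the 7 CD8 T cell markers was above background, with summed signals of 21444 to 51306 in expansions and 27217 to 43794 in polyclonal samples. B cell markers summed to 2976 to 3877 in expansions and 2035 to 4429 in polyclonal samples, myeloid markers to 1979 to 8754 and 1733 to 6239.7, and erythroid markers to 14.8 to 78 and 17.1 to 95.6. Markers of dendritic or antigen-presenting cells summed to 1363.5 to 2137.7 in expansions and 918.7 to 2016.5 in polyclonal samples. Those of CD4 or regulatory T cells summed to 145.3 to 260.9 and 149.5 to 498.1. NK cell markers, some of which memory CD8 cells also express, summed to 8811 to 26868 in expansions and 17475 to 46944 in polyclonal samples. In bulk samples, fewer cells expressing a gene and less RNA per cell cannot be told apart. The scanner settings recorded for expansion 4 differed from those shared by the other 7 arrays, and an effect of those settings and of that sample cannot be told apart. Array number, with 4 pairs and a single alpha4-high expansion, limited the precision.

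The promoter windows of the genes that the results below turn on are shown. Bcl2 and Bcl2l11 encode opposing proteins. In expansion 1, 4 of 5 tested Bcl2 probe sets and 3 of 4 tested Bcl2l11 probe sets were lowest. The tested Bcl2l1 probe set was also lowest there, and no Mcl1 probe set was. Expansion 1 was lowest for 8 of the 20 tested member probe sets, against 18.3% of all tested probe sets. Probe sets of the same gene are not independent. Each window is the 250 bases 5' of an annotated start, 5' to 3' on the gene's strand, from RefSeq on GRCm38.p6, and 9 of the 10 members had at least 1 window in the table, 15 windows in all. Capitals mark matches on either strand to GTAAACA (the core of the FOXO motif) or GGGCGG (the GC box), and no match overlapped another. CACGTG (the E box) was also searched on both strands and had no match in these 4 windows. Bcl2 lies at chr1:106714291-106714540 on the minus strand. The starts of Bcl2l11 lie at chr2:128125788-128126037 and chr2:128127325-128127574, both on the plus strand, and Mcl1 lies at chr3:95658471-95658720 on the plus strand.
Bcl2: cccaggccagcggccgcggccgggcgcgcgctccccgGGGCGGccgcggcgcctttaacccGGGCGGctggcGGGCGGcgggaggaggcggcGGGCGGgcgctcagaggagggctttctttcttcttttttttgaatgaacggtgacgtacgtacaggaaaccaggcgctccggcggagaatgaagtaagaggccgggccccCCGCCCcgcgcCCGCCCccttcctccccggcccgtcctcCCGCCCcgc
Bcl2l11, start 1: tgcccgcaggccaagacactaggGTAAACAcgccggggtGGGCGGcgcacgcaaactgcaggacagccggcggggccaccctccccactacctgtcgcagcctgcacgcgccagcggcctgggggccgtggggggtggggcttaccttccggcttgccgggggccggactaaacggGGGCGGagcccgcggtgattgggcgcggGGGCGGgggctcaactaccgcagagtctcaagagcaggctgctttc
Bcl2l11, start 2: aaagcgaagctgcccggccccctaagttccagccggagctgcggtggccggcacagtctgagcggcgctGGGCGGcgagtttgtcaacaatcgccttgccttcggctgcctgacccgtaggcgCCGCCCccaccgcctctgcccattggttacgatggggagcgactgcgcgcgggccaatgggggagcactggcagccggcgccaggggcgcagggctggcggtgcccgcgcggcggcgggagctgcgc
Mcl1: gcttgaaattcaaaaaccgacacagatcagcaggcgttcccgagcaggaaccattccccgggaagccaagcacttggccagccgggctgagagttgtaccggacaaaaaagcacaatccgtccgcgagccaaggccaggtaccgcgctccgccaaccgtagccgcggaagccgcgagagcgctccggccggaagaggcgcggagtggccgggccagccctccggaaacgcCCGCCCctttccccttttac
All 4 windows were rich in G and C, with 74.8% in Bcl2, 72.0% and 73.2% in the starts of Bcl2l11 and 64.4% in Mcl1, against a median of 52.4% over 32851 windows of all genes. The dinucleotide CG occurred 36, 24, 30 and 26 times, against a median of 6. The Bcl2 window held 7 GC boxes, the windows of Bcl2l11 held 3 and 2, and that of Mcl1 held 1, where 32.7% of all windows held at least 1. The FOXO core occurred once among them, in the first Bcl2l11 window, 227 bases before the start, and 3.17% of all windows held it (6.02% held the E box). A match is a run of letters and not a shown binding site.

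Across all 4 pairs no BCL2 family gene was called higher or lower in expansions. Of the 29 probe sets, 20 of 7 genes were bright enough to be tested, with a mean above the median of all probe sets (a signal of about 45.3), and 17 were above background on all 8 arrays. Paired limma models over 22518 probe sets, with mouse as a block and Benjamini-Hochberg adjustment at 0.05, called 0 of the 20 in all pairs, and 0% of all tested probe sets. At an unadjusted p under 0.05 the counts were 1 of 20 and 3.25%. In the 3 alpha4-low pairs alone, 0 of 20 were called, against 0.0533% of all, and 1 of 20 at an unadjusted p under 0.05, against 5.11%. Among the 20, 11 had a positive mean difference, expansion minus partner, and 9 a negative one. All 3 alpha4-low pairs gave the same sign for 7 of them, against 25.0% of all tested probe sets. Their median difference was 0.12 on the log2(signal + 5) scale used throughout, and that of all tested probe sets was -0.04. No tested member separated all expansions from all polyclonal samples, where 1.35% of all tested probe sets did.

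**Figure D1:**
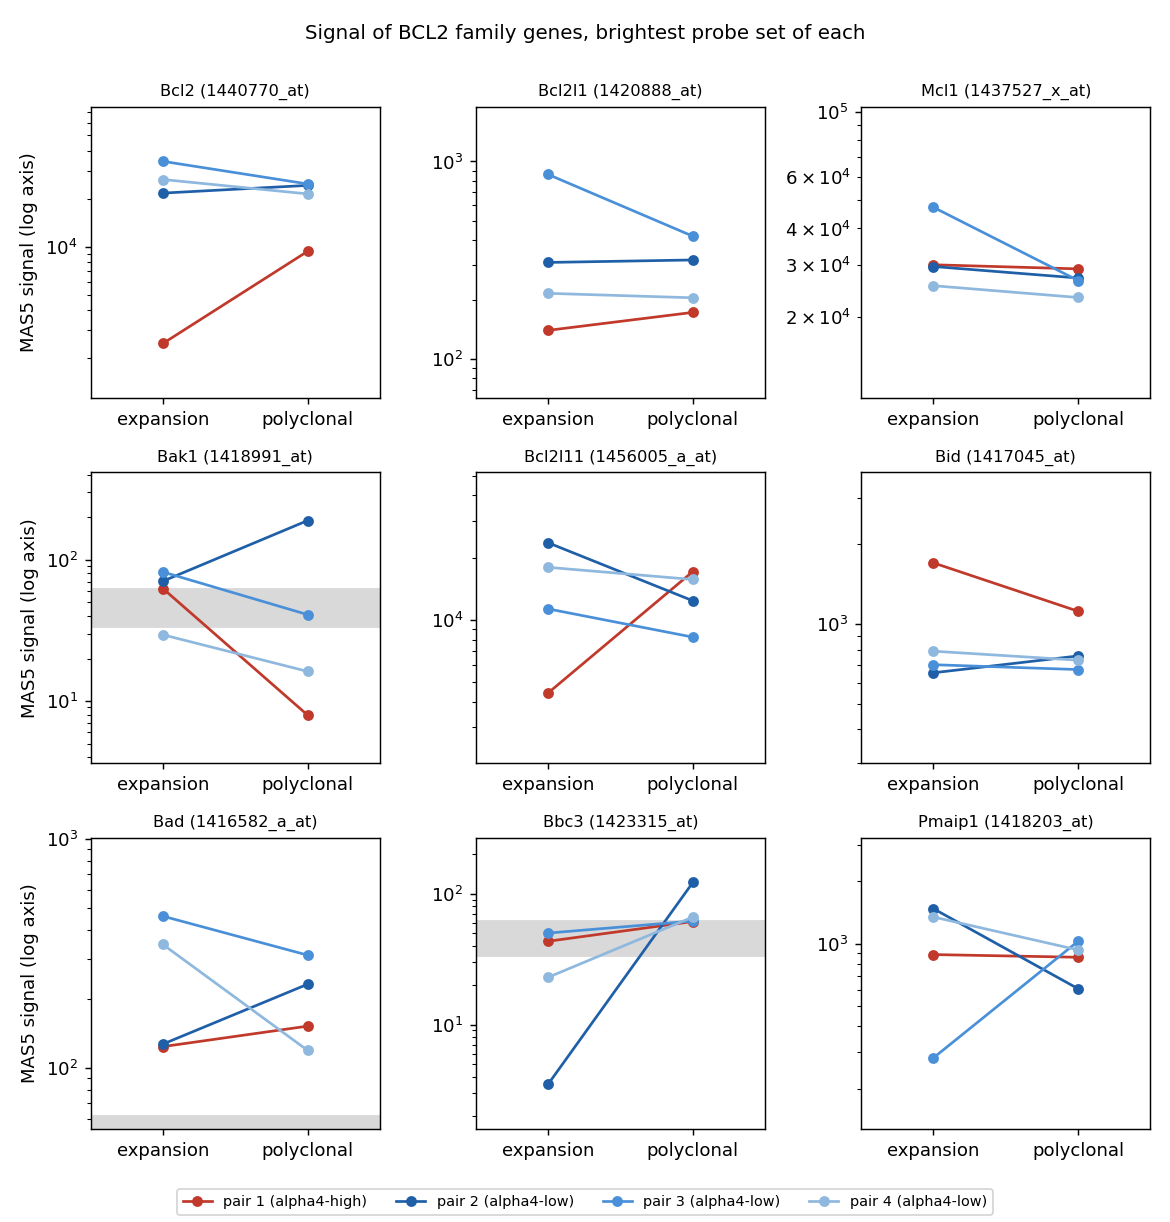
MAS5 signal (log axis) of the brightest probe set of each of the 9 genes in the expansion and the polyclonal partner of each pair, a line joining the samples of 1 mouse; the grey band is the range of the background level over arrays, 33.7 to 61.9. Bcl2, Bcl2l1 and Bcl2l11 are lowest in the alpha4-high expansion of pair 1, and Bbc3 and Bak1 lie near the band.

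Bcl2, the anti-apoptotic founder of the family, was detected on all arrays by all 5 of its probe sets. The brightest, 1440770_at, read 2469.6, 21706, 34356 and 26419 in expansions 1 to 4, against 9356, 24264, 24776 and 21452 in polyclonal samples 1 to 4. Expansion 1 was far below every other array, and its own partner was the next lowest, while the alpha4-low expansions and polyclonal samples 2 to 4 overlapped. The mean difference was -0.33 (SE 0.37, n = 4 pairs, limma adjusted p = 0.9998) over all pairs and 0.20 (SE 0.32, n = 3 pairs, limma adjusted p = 0.9942) over the alpha4-low pairs. Probe set 1457687_at read 3109, 12491, 9724 and 7999 in expansions 1 to 4, and 8948, 10871, 6682 and 7891 in the polyclonal samples. Here too expansion 1 was the lowest array, but its partner lay among the other polyclonal samples. Probe set 1443837_x_at read 573, 5519, 27354 and 6205 in expansions, and 1504, 6511, 7022 and 5877 in polyclonal samples, so that mouse 1 was low in both samples and expansion 3 stood above the rest. The dimmer probe sets 1422938_at and 1437122_at did not show a common pattern, with mean differences of 0.45 and -0.39.

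Bcl2l1, which encodes the anti-apoptotic BCL-XL, had 1 tested probe set of 4. That probe set, 1420888_at, read 139.95, 308.6, 859.7 and 215 in expansions 1 to 4, and 172.5, 318, 419 and 204 in polyclonal samples 1 to 4. Expansion 1 was the lowest array, and its partner was the next lowest. Samples of 1 mouse lay close together except in mouse 3, whose expansion was higher by 1.03 on the log2 scale, and the mean difference of 0.19 was within its error (SE 0.35, limma adjusted p = 0.9998). The other probe sets of Bcl2l1, 1426050_at, 1420887_a_at and 1426191_a_at, were above background on 2, 2 and 1 arrays.

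Mcl1, a short-lived anti-apoptotic protein that T cells need for survival, was bright on every array. Its brightest probe set, 1437527_x_at, read 30092.5, 29684, 47225 and 25535 in expansions 1 to 4, and 29136, 27125, 26594 and 23280.2 in the polyclonal samples. The expansion was above its partner in all 4 pairs, by 0.05, 0.13, 0.83 and 0.13, and expansion 3 alone stood clear of the other arrays. The mean difference of 0.28 (SE 0.23, n = 4 pairs) did not pass the test (limma adjusted p = 0.9998). Over 15 alternatives it ranged between 0.04 and 0.36. With all 4 pairs positive, its sign could not change when a pair was left out. The filter and variance trend do not alter the estimate, so most alternatives could not test the sign. Mcl1 probe sets 1456243_x_at and 1456381_x_at were likewise higher in 4 of 4 pairs, with mean differences of 0.34 (SE 0.24) and 0.48 (SE 0.26). These were the 3 of 20 member probe sets with that pattern, which 4.79% of all tested probe sets showed, and all 3 belong to the _x_at class, whose probes may match other transcripts. Probe sets 1448503_at and 1416880_at gave 0.18 and 0.21, with both signs among the pairs. The sixth, 1416881_at, went the other way: it read 3327, 1842, 1346 and 1245 in expansions and 2097, 2369.8, 2269 and 1994 in polyclonal samples, so that all 3 alpha4-low expansions were below all polyclonal samples and expansion 1 was above them. Its alpha4-low difference of -0.60 (SE 0.40) did not pass the test either (limma adjusted p = 0.9851).

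Bak1, one of the pore-forming effectors, was at the edge of detection and was not tested. Probe set 1418991_at read 62.6, 70.6, 82.0 and 29.4 in expansions 1 to 4, and 7.95, 189.6, 40.9 and 16.2 in polyclonal samples 1 to 4. It was above background in 3 expansions and 2 polyclonal samples, and the groups overlapped. The other Bak1 probe set, 1425716_s_at, was above background on 1 array.

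Bcl2l11, which encodes the BH3-only protein BIM, showed its lowest signal in the alpha4-high expansion in 3 of its 4 tested probe sets. Probe set 1456005_a_at read 4408, 23585, 11267 and 17926 in expansions 1 to 4, and 17107, 12336, 8218 and 15649 in polyclonal samples 1 to 4. Expansion 1 was below all other arrays although its partner was the highest polyclonal sample, and each alpha4-low expansion was above its own partner. Over all pairs the mean difference was -0.09 (SE 0.42, limma adjusted p = 0.9998), and over the alpha4-low pairs 0.53 (SE 0.34, limma adjusted p = 0.9833). Probe set 1435448_at read 460.1, 2391, 2462 and 2461.5 in expansions 1 to 4, and 1960.1, 1826, 1289.6 and 2673 in the polyclonal samples. The 3 alpha4-low expansions were almost equal (SD of log2 signal 0.02), and expansion 1 was again the lowest array. The dimmer 1456006_at followed the same order in pair 1 (33.2 in the expansion, below background, and 95.3 in the partner). Probe set 1435449_at disagreed: it read 68.5, 131.6, 7.35 and 105.9 in expansions and 94.1, 431, 90.04 and 126.7 in polyclonal samples, lower in 4 of 4 expansions. Its mean difference of -1.32 (SE 0.52) had an unadjusted p of 0.0273 in limma, the lowest among the members in all pairs. The limma adjusted p was 0.9998, and 6.05% of all tested probe sets were lower in 4 of 4 pairs. In pair 3, which had the widest gap, the expansion's signal of 7.35 was below the background level of its array (61.9). The fifth, 1426334_a_at, was above background on 3 arrays.

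Of the other BH3-only genes, Bid, Bad and Pmaip1 showed no separation of the groups in their brightest probe sets. Bid, which links death receptors to mitochondria, read 1702, 655, 702 and 789.96 in expansions 1 to 4 and 1118, 758, 673 and 730.5 in polyclonal samples 1 to 4 with probe set 1417045_at. Both samples of mouse 1 were above all other arrays, and the mean difference was 0.14 (SE 0.32). Bid 1447873_x_at gave 0.51 (SE 0.48), with polyclonal sample 1 below background. Bid 1448560_at was above background in no expansion (12.7, 3.53, 3.17 and 3.07) and in 2 polyclonal samples (12.9, 109.1, 28.2 and 67.8 in samples 1 to 4). Bad, whose protein is silenced by phosphorylation downstream of growth factors, read 123.9, 127.1, 459 and 345 in expansions and 152.2, 232, 310.5 and 119.3 in polyclonal samples with 1416582_a_at, higher in the expansions of mice 3 and 4 and lower in those of mice 1 and 2. Its second probe set, 1416583_at, was above background in 3 expansions (65.7, 2.89, 77.6 and 55.1) and in no polyclonal sample (3.67, 30.7, 20.5 and 39.3), and no bound on a fold could be set. Pmaip1, which encodes NOXA, a partner of MCL1, had 1 probe set, 1418203_at, which read 886, 1474, 281.6 and 1344 in expansions and 859.8, 606, 1027 and 932 in polyclonal samples. The mean difference was 0.00 (SE 0.47), with paired differences of 1.27 in pair 2 and -1.85 in pair 3.

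Bbc3, which encodes the p53-induced BH3-only protein PUMA, was above background in 0 of 4 expansions and in 4 of 4 polyclonal samples. Its probe set 1423315_at read 43.3, 3.50, 50.1 and 23.0 in expansions 1 to 4, and 61.3, 122.2, 61.8 and 66.4 in polyclonal samples 1 to 4. Every polyclonal sample was above every expansion, but the probe set was too dim to be tested. Bbc3 and the dim Bid 1448560_at were the 2 of 29 member probe sets whose groups did not overlap, against 1.83% of all 45037 probe sets other than controls. Set against the background level of the expansion arrays, it was at least 1.57-fold lower in expansions. The background level itself was higher on expansion arrays 2 and 3 (51.7 and 61.9) than on those of their partners (43.6 and 34.7), and polyclonal samples 1 and 3, at 61.3 and 61.8, did not exceed the level of expansion array 3.

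**Figure D2:**
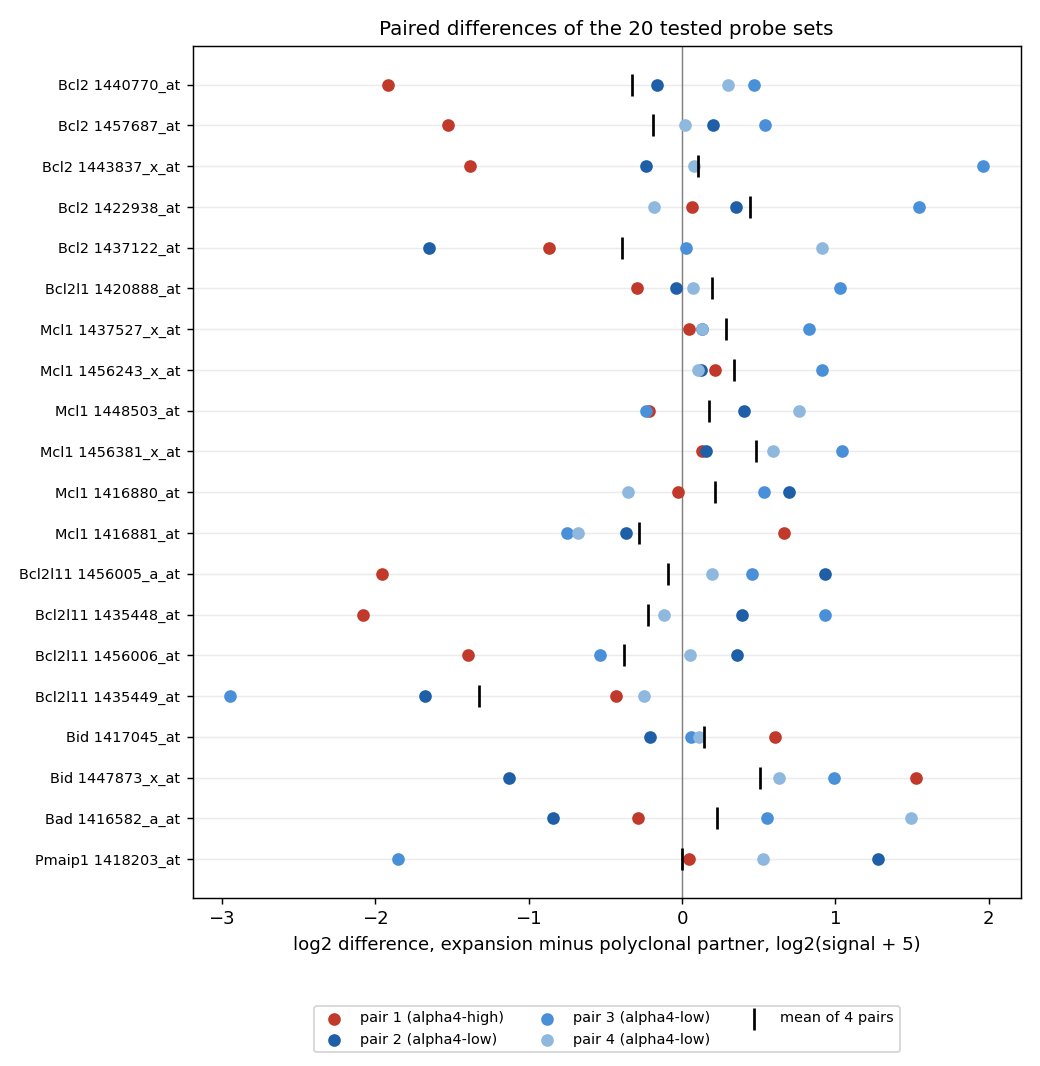
Difference in log2(signal + 5), expansion minus polyclonal partner, for the 20 tested probe sets in each of 4 pairs (points), with the mean of the pairs (black bar). A group of 3 Bcl2 and 3 Bcl2l11 probe sets lies below -1 in pair 1, and all 3 _x_at probe sets of Mcl1 lie above 0 in each pair.

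The brighter probe sets of Bcl2 and Bcl2l11 had low signals in the alpha4-high expansion that the alpha4-low expansions did not share. In pair 1, 6 of the 20 tested probe sets were lower in the alpha4-high expansion by over 1 log2 unit, against 9.52% of all tested probe sets, and 1 of 20 was higher by that much, against 12.0%. The 6 were 3 probe sets of Bcl2 and 3 of Bcl2l11, so they stand for 2 genes, of which each has 5 probe sets. All 6 were also below the 7 other arrays, as were 79.7% of all tested probe sets that were lower by over 1 log2 unit in pair 1 (7.59% of all tested probe sets met both). Expansion 1 was below its partner 3.79-fold, 2.88-fold and 2.62-fold for the Bcl2 probe sets 1440770_at, 1457687_at and 1443837_x_at, and 3.88-fold and 4.26-fold for the Bcl2l11 probe sets 1456005_a_at and 1435448_at. Polyclonal sample 1 was itself below the mean of the other 3 polyclonal samples 2.51-fold and 4.30-fold for Bcl2 1440770_at and 1443837_x_at, but not for the other 3 probe sets. The paired difference, alpha4-low minus alpha4-high, was 2.12 for Bcl2 1440770_at (SE 0.65, unadjusted p = 0.00631, limma adjusted p = 0.4278) and 2.48 for Bcl2l11 1456005_a_at (SE 0.68, unadjusted p = 0.00306, limma adjusted p = 0.3334). Neither was called, nor were the Bcl2 probe set 1457687_at, with a difference of 1.78 (SE 0.70, limma adjusted p = 0.6273), and the Bcl2l11 probe set 1435448_at, with 2.48 (SE 0.83, limma adjusted p = 0.5014). The dimmer Bcl2 probe sets 1422938_at and 1437122_at gave 0.51 and 0.63, and Bcl2l1 1420888_at, also lowest in expansion 1, gave 0.65. Bcl2l11 1435449_at went the other way, with -1.19 and its lowest signal in expansion 3, where it was below background. Of the 20, 0 passed the adjusted threshold, against 0.0533% of all, and 4 passed an unadjusted p under 0.05, against 6.57% of all.

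These differences rest on 1 alpha4-high expansion, whose spread the model takes from the other pairs. Without mouse 3, Bcl2l11 1456005_a_at was called, with a difference of 2.52, and without the mouse block Bcl2 1440770_at was called, with 3.45. Calls over all tested probe sets also rose under these settings, as given in the last section. Without the block the pairing is ignored, and the value compares the expansions alone. Polyclonal sample 1 was itself 2.51-fold below the mean of the other 3 polyclonal samples for Bcl2 1440770_at. Without mouse 4, which holds the array with scanner settings of its own, the differences were 2.07 for Bcl2 and 2.65 for Bcl2l11. In expansion 1 the summed myeloid marker signal was 6193, against 3172 in its partner, and the NK cell marker signal 26868 against 20513. The B cell marker signal was 3513 against 2927, and that of antigen-presenting cell markers 1834 against 1285. All these sums were within the range of the other 6 arrays. The 4 tested antigen-presenting cell markers had a median difference of 0.53 over all pairs. The 3' to 5' signal ratio of actin was 38.2 in expansion 1 and 54.5 in its partner, and 34.9 to 89.7 on the other arrays. That of Gapdh was 5.33 and 7.33, and 2.78 to 8.41 on the other arrays. Such ratios depend on RNA integrity and on amplification, which favours 3' ends, and these cannot be told apart here. NK cell marker sums ran the other way in the alpha4-low pairs, with 14327, 8811 and 20299 in expansions 2 to 4 and 33279, 17475 and 46944 in their partners. The 3 tested NK cell markers had a median difference of 0.28 in pair 1 and of -2.47 in the alpha4-low pairs. These markers did not move together in pair 1, where Klre1 differed by 1.11, Eomes by 0.28 and Klra8 by -3.05. In the alpha4-low pairs they differed by -2.47, -0.22 and -3.90. Most of the sum in mouse 1 was Eomes, with 21207 in the expansion and 17451 in its partner. The part of these in the result was not tested.

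**Figure D3:**
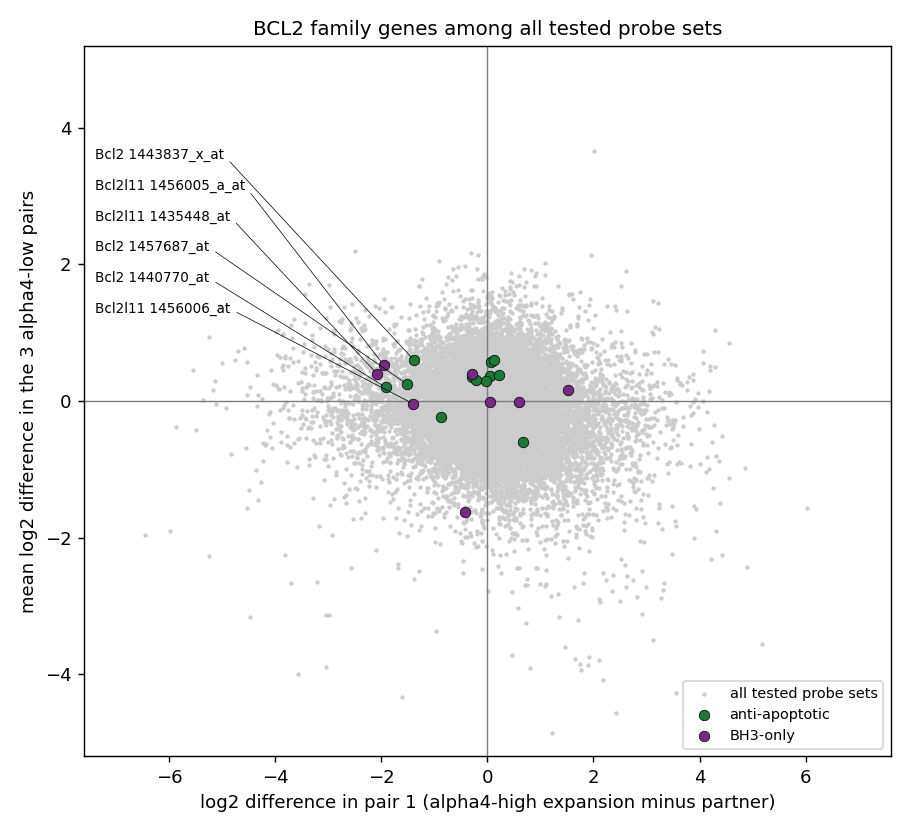
Difference in log2(signal + 5) in pair 1, alpha4-high expansion minus partner (x axis), against the mean difference in the 3 alpha4-low pairs (y axis), for 22518 tested probe sets (grey) and the 20 of the BCL2 family (colours by role). The 6 labelled probe sets of Bcl2 and Bcl2l11 lie below -1 on the x axis and between -0.04 and 0.60 on the y axis.

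Most tested member probe sets were more widely spread among expansions than among polyclonal samples. The 20 stand for 7 genes, with 5 of Bcl2, 6 of Mcl1 and 4 of Bcl2l11, so the counts below are not of independent members. The SD of log2 signal was larger among the 4 expansions than among the 4 polyclonal samples for 18 of the 20 tested probe sets, against 58.9% of all tested probe sets. The median SD of the members was 0.89 among expansions and 0.33 among polyclonal samples, and that of all tested probe sets was 0.63 and 0.55. Among the 3 alpha4-low expansions the members' median SD was 0.49, a value from fewer samples that was not set against all tested probe sets. Member probe sets were higher in the expansion in 8, 11, 15 and 15 of 20 cases in pairs 1 to 4, against 53.8%, 40.2%, 50.3% and 50.3% of all tested probe sets. Expansion 3 was the highest of the 8 arrays for 10 of the 20, against 25.2% of all tested probe sets.

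The balance of anti-apoptotic and pro-apoptotic genes was taken in each pair from the brightest probe set of each gene, as the median difference of 3 anti-apoptotic genes minus that of 6 pro-apoptotic genes. It was -0.17 in pair 1, 0.48 in pair 2, 0.57 in pair 3 and -0.23 in pair 4, a mean of 0.16 ± 0.42 (SD, n = 4 pairs). The 6 pro-apoptotic genes include Bak1 and Bbc3, which were too dim to be tested. With only the 4 tested pro-apoptotic genes, a choice made after seeing the data, pair 2 turned to -0.40, the other pairs kept their values, and the mean was -0.06 ± 0.43. The mean under quantile normalization was -0.09. Neither the sign of the mean nor that of pair 2 was therefore settled, and the mean was smaller than the spread. In pair 1 both medians were negative (-0.29 for anti-apoptotic and -0.12 for pro-apoptotic genes), in pair 3 both were positive (0.83 and 0.26), and in pair 2 the anti-apoptotic median was -0.04, with a pro-apoptotic one of -0.53 with Bak1 and Bbc3 and 0.36 without them. Bcl2 and Bcl2l11 moved by nearly equal amounts in pairs 1, 3 and 4, with Bcl2 minus Bcl2l11 at 0.04, 0.02 and 0.10, and apart in pair 2, at -1.10. With the mean over probe sets above background in place of the brightest one, the same quantity was 0.34, -0.30, 1.43 and 0.26 in pairs 1 to 4, so the near equality rests on the choice of probe set. Mcl1 minus Pmaip1 was 0.00, -1.14, 2.68 and -0.39.

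**Figure D4:**
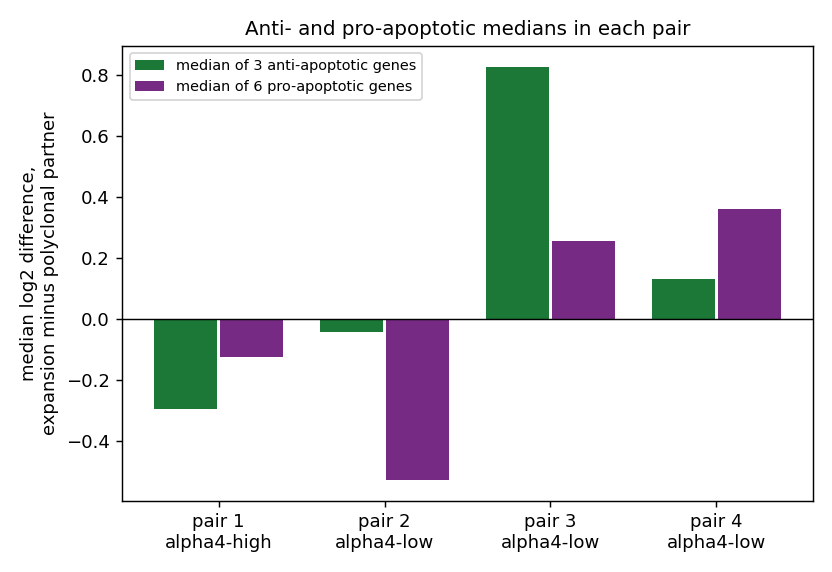
Median difference in log2(signal + 5), expansion minus polyclonal partner, of 3 anti-apoptotic genes (green bars) and 6 pro-apoptotic genes (purple bars) in each pair, by the brightest probe set of each gene. The anti-apoptotic median is above the pro-apoptotic one in pairs 2 and 3 and below it in pairs 1 and 4; in pair 2 this turns round (-0.04 against 0.36) without the untested Bak1 and Bbc3.

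Genes that act around the family were read from 6 lists, and limma called 0 higher and 0 lower in each list in all pairs, in the alpha4-low pairs and in the difference between subclasses. A list of further BCL2 family genes also held genes of proteins that bind the family, such as Bag1. Of this list 9 of 19 genes were tested, with a median difference of -0.25. Bag1, a co-chaperone that binds BCL2, was lower in 4 of 4 expansions (mean difference -0.66, SE 0.34), as were 6.05% of all tested probe sets. The list genes named by rule have the largest mean differences, which favours such patterns. Bcl2l14, Bcl2l2 and Bnip3 averaged -1.33, -0.48 and -0.47 with both signs among the pairs. Bcl2l14 was above background in only 2 of 4 expansions. Of apoptosome and caspase genes, 12 of 14 were tested (median -0.17). Casp6, an executioner caspase, read 483, 447, 437 and 279 in expansions 1 to 4, and 691, 773, 589 and 632 in polyclonal samples 1 to 4. Every expansion was below every polyclonal sample (mean difference -0.72, SE 0.32, limma adjusted p = 0.9998). Of all tested probe sets, 1.35% had groups that did not overlap. Casp8, the initiator caspase of death receptors, was lower in 4 of 4 expansions (-0.54, SE 0.34), and the genes of the DNA fragmentation factor, Dffa and Dffb, averaged -0.48 and -0.55.

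Inhibitors of apoptosis were tested in 9 of 10 cases (median -0.27). Birc3, a ubiquitin ligase of this class, read 2497, 2509.7, 2273 and 2778 in expansions and 3112, 3245, 3459.9 and 3386 in polyclonal samples. This was a small shift of -0.39 (SE 0.29, limma adjusted p = 0.9998). The groups did not overlap, as in 1.35% of all tested probe sets. Naip6 and Naip5 averaged -1.39 and -0.64, and Birc6 0.54. In the death receptor pathway, 9 of 11 genes were tested (median -0.04). The death receptor gene Fas read 818, 328, 316 and 669 in expansions and 130.3, 161.4, 515 and 418 in polyclonal samples, higher in 3 of 4 expansions (0.90, SE 0.48), with the widest gap in pair 1. Tnfrsf10b, above background in only 2 of 4 polyclonal samples, averaged 0.82, and Tnfsf10 and Tnfrsf1b averaged -0.63 and -0.49. None of these differences passed the test (limma adjusted p = 0.9998 for each).

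Among 28 regulators of the family, 24 were tested (median -0.14). Stat5a, a transcription factor downstream of interleukin receptors, was higher in 4 of 4 expansions (0.90, SE 0.45), as were 4.79% of all tested probe sets. It was above background in only 2 of 4 polyclonal samples. Stat5b, its close relative, averaged -1.02 with both signs. Stat3 was lower in 4 of 4 (-0.55, SE 0.32), as were 6.05% of all tested probe sets. Myb, a transcription factor of lymphoid cells, averaged -1.05 (SE 0.44). Foxo3, a FOXO factor known to activate Bcl2l11 and named here after its values were seen, read 1289.8, 4957, 4390.03 and 3947 in expansions and 4197, 3013, 2608 and 3649.7 in polyclonal samples. It was lowest in expansion 1, as were 13 of the 69 tested genes of the 6 lists and 18.3% of all tested probe sets. Its difference between subclasses was 2.22 and was not called. Foxo1, a further FOXO factor of the list, was also lowest in expansion 1 (1622), with a difference between subclasses of 0.76. A link of either gene to Bcl2l11 was not tested. Of 7 cytokine receptor genes, 6 were tested (median -0.18). Il2rb, whose product CD122 was used in the sort of all samples, averaged 0.30. Il15ra, Il21r and Il2ra averaged -0.18, -0.86 and -0.91, and all of these receptor genes had both signs among the pairs. Il2ra was above background in only 1 of 4 expansions.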

How the data were processed

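RNA was isolated from frozen sorted cells, amplified in a double procedure and hybridised to Affymetrix Mouse Genome 430 2.0 arrays, per the labels' protocols. The deposited table gives 45101 probe sets a linear intensity (signal), which per the submitters' processing notes came from MAS5 (version not given in the sources used here). Each array has a 2% trimmed mean of 500 in the deposited values, so scaling hides changes in total RNA, and amplification favours 3' ends. The table carries no detection calls.

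Values were taken as log2(value + 5). The 64 control probe sets and those with a mean log2 value not above the median were left out. Fits used limma 3.58.1 under R 4.3.3 (lmFit, eBayes with an intensity trend, two-sided) and were checked on simulated data. Mouse was a fixed block, because the study design states that the samples of a pair came from the same animal; deviations of paired samples from their group means correlated at 0.374, 0.0771, 0.214 and 0.338, although expansion 2 was closer to polyclonal sample 4 (0.131) and expansion 3 to polyclonal sample 2 (0.3005). A model gave the expansions a common coefficient, and another gave each subclass its own. The background level was the 95th percentile of 27 bacterial control probe sets on each array, and was chosen after the data had been examined. For a probe set above it on no array of a group, the bound sets the brighter group's mean log2 signal over the dimmer group's mean, each dim signal being raised to that level.

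Genes were named by the platform annotation, with 1 gene for 34958 probe sets, several for 932 and none for 9160. The members, gene lists and marker lists were chosen with earlier results of these data known. By rule, the text names every member probe set and, among tested genes, up to 4 of each list with the largest mean difference in all pairs. Alternatives covered the pseudocount, filter, scaling, variance trend, block, sort purity, probe set choice and omission of each pair. Figures were drawn with matplotlib 3.10.9.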

Additional observations from a re-analysis of the deposited data

Results flagged for a closer look

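In 5 cases a value of a member probe set lay apart from the other 3 samples of their group, among 44 groups of 4 examined, where chance alone gives about 1 in 20. In polyclonal sample 1, Bcl2 1440770_at read 9356 (next value 21452), Bcl2 1443837_x_at read 1504 (next 5877) and Bid 1447873_x_at read 37.8 (next 121.8), each below the other polyclonal samples. The Bid value was below the background level of that array (48.15). In expansion 1, the alpha4-high one, Bcl2l11 1435448_at read 460.1, below the alpha4-low expansions (next 2391). In polyclonal sample 2, Bbc3 1423315_at read 122.2, above the other polyclonal samples (next 66.4).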

How the results depend on the processing

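The number of BCL2 family probe sets called stayed at 0 in all pairs and in the alpha4-low pairs under each of 13 alternatives. In the difference between subclasses it was 1 without a replicate block, 1 without mouse 3 (0 to 1 when each alpha4-low pair was left out in turn), and 0 under the other alternatives. That count and the members' subclass differences under other settings were added after seeing the data. Over all tested probe sets, the 0 calls in all pairs became 20 without pair 1 (0 to 20 as each pair was left out). The 12 calls in the alpha4-low pairs became 22 with only the brightest probe sets kept, 6 after quantile normalization, 43 after scaling to a common median, 0 without the intensity trend and 0 without the replicate block, and 18 to 148 as each pair was left out. The 12 calls in the difference between subclasses became 0 with a pseudocount of 1, 25 without a filter, 63 with only the brightest probe sets, 0 after quantile normalization, 101 after scaling to a common median, 0 without the trend, 143 without the replicate block, and 64 to 266 as each alpha4-low pair was left out. The causes were not tested. The subclass difference ranged over the alternatives between 1.40 and 3.45 for Bcl2 and between 1.28 and 2.76 for Bcl2l11, and with sort purity as a covariate it was 2.08 and 2.19. The same covariate moved the mean difference in all pairs to -0.83 for Bcl2, -0.75 for Bcl2l11 and -0.12 for Bcl2l1, none of them called. The mean balance of anti- and pro-apoptotic genes ranged between -0.09 and 0.30. Signal near background limits what can be read of Bak1, Bbc3 and most Bcl2l1 probe sets, and of Bcl2l14, Tnfrsf10b, Stat5a and Il2ra.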
